A study of Homo sapiens with 66 samples.

Results

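The human mitochondrial chromosome carries 37 genes whose symbols begin with MT-, and all 37 were followed here over the differentiation of H9 embryonic stem cells into spinal motor neurons. They were found by matching the Ensembl identifiers of both deposited count tables to gene symbols, 37 of 60603 identifiers in all, and comprised 13 protein-coding genes, 2 ribosomal RNA genes and 22 transfer RNA genes. The rule reads the symbol alone. Bulk RNA sequencing covered 66 libraries in 22 groups of 3 libraries each.

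All libraries came from H9, an established human embryonic stem cell line, of wild-type genotype, and the labels gave neural differentiation as the treatment of every group, the starting stem cells (hESC) included. The 4 daily groups named hNMP (hNMP-D1 to hNMP-D4) were cells becoming neuromesodermal progenitors in medium with FGF-2, CHIR99021, SB431542 and Dorsomorphin. The 6 daily groups named NeuDet (NeuDet-D1 to NeuDet-D6) were cells becoming spinal cord neural progenitors, in medium that also held FGF-8 and Compound E. The progenitors themselves (hSCNPC) were sampled at passages 5, 10, 20, 30 and 40, in medium with SB431542, CHIR99021 and Purmorphamine. Motor neuron cultures (hMN) were sampled on days 6, 12, 18, 24, 30 and 42 in medium with Purmorphamine, Compound E, BDNF, GDNF and NT-3, and their counts were in a second table. No motor neuron library from the day of plating was analysed here, so hMN-D6 was set against hSCNPC-P10, and stage and table cannot be told apart in that comparison. All libraries derived from 1 line, and no label tells if a group's 3 libraries came from separate cultures, so that p-values measure only the spread between these libraries.

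The mitochondrial chromosome is a small circle, present in many copies a cell, and both of its strands are transcribed into long precursors that are cut into single RNAs, largely at the transfer RNAs that lie between the genes. Its mRNAs encode core membrane subunits of the oxidative phosphorylation (OXPHOS) complexes, whose many remaining subunits come from nuclear genes, and its rRNAs and tRNAs serve the mitochondrial ribosome that translates those mRNAs. Stem cells and neural progenitors are known to rely strongly on glycolysis, and neurons on oxidative phosphorylation.

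The coding genes were single-exon genes on chrM of hg38. Genes MT-ND1, MT-ND2, MT-ND3, MT-ND4L, MT-ND4, MT-ND5 and MT-ND6 encode subunits of complex I, MT-CYB encodes cytochrome b of complex III, MT-CO1, MT-CO2 and MT-CO3 encode the catalytic core of complex IV, and MT-ATP6 and MT-ATP8 encode subunits of complex V, the ATP synthase. Of these, MT-ND6 (chrM:14149-14673) alone is on the minus strand of the reference, together with 8 of the tRNA genes. On its own strand MT-ND6 held 35.6% guanine, against 6.28% in MT-ATP8 to 16.2% in MT-CO1 among the other coding genes. Whether the authors counted reads by strand is not given in the sources used here, so reads of MT-ND6 and of the minus-strand tRNA genes cannot be told apart from RNA of the opposite strand.

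Neighbouring genes can share bases, which matters for the ratio of MT-ATP6 to MT-ATP8 described further on. MT-ATP8 (chrM:8366-8572) and MT-ATP6 (chrM:8527-9207) are read from 1 mRNA in different frames and share 46 bases, which is 22.2% of MT-ATP8. MT-ND4L (chrM:10470-10766) and MT-ND4 (chrM:10760-12137) share 7 bases. How reads over such bases were assigned is not given in the sources used here. The plus strand of both junctions in hg38, 5′ to 3′, with the shared bases in capitals, reads as follows.
MT-ATP8 to MT-ATP6, chrM:8512-8587: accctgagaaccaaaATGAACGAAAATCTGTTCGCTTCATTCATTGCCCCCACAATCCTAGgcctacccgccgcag
MT-ND4L to MT-ND4, chrM:10730-10796: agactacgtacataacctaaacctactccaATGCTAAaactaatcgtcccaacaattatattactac

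Of the 13 coding genes, 6 (MT-ND1, MT-ND2, MT-CO3, MT-ND3, MT-ND4 and MT-CYB) end in T or TA rather than a full stop codon, and the poly(A) tail added after cutting is known to complete it. The junctions of MT-ND1 with MT-TI and of MT-CO3 with MT-TG are shown as examples, with the bases after the last full codon in capitals and the tRNA starting right after them.
MT-ND1 to MT-TI, chrM:4243-4282: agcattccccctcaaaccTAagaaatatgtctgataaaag
MT-CO3 to MT-TG, chrM:9971-10010: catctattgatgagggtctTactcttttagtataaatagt

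Mitochondrial genes took between 3.34% of all counts (hMN-D12 replicate 2) and 8.13% (hNMP-D3 replicate 2) of a library, with a median of 5.12%. Libraries held 14142238 to 40204753 counts (median 20676228), and the 95% Wilson interval of a library's share, which covers counting error only, was at most 0.0277 percentage points wide. The least counted mRNA, MT-ATP8, had at least 2842 counts in every library. At that depth the spread between libraries, rather than counting error, set the precision of the mRNA and rRNA values.

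The share was high in stem cells and neuromesodermal progenitors and lower through the neural steps. It was lowest on average in day 6 motor neuron cultures and higher again from day 18. In hESC it was 7.08%, 7.37% and 7.73%, and in hNMP-D4 it was 7.48%, 7.71% and 7.94%. Between them, hNMP-D1 libraries had 5.81% to 6.06%, below every hESC and every hNMP-D4 library. The share was 5.07% ± 0.575 (SD, n = 3) in NeuDet-D6, 4.77% ± 0.0811 in hSCNPC-P5 and 4% ± 0.0592 in hSCNPC-P40. Day 6 motor neuron cultures had the lowest group mean, 3.61% ± 0.142, within the SD of hMN-D12 (3.95% ± 0.547). In hMN-D18 the share was 4.61% to 4.98%, and hMN-D42 had 5.31% ± 0.468. The ratio of the highest group mean (hNMP-D3, 7.79% ± 0.339) to the lowest was 2.16, and hNMP-D3 and hNMP-D4 differed by less than their SDs. These are shares of the RNA in bulk cultures, so fewer mitochondria or cells of a type cannot be told apart from less mitochondrial RNA in each.

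**Figure D1:**
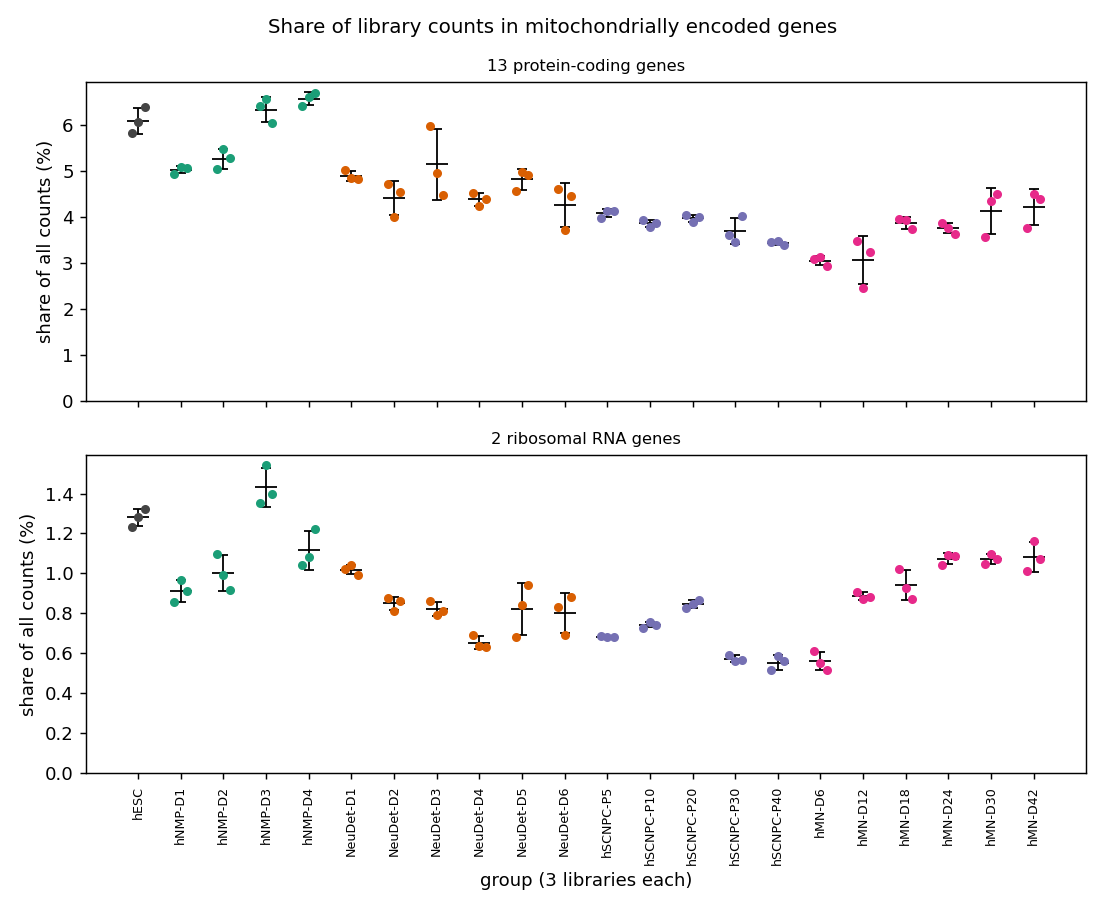
Share of all counts (%, y axis) in the 13 mitochondrial protein-coding genes (top) and the 2 mitochondrial rRNA genes (bottom) in each of the 22 groups (x axis). Points are the 3 libraries of a group, coloured by stage, bars are the mean ± SD. The mRNA share ran from a group mean of 3.05% in hMN-D6 to 6.58% in hNMP-D4, and the rRNA share from 0.554% in hSCNPC-P40 to 1.43% in hNMP-D3.

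Most mitochondrial counts were mRNA. Ribosomal RNA, which lacks the long tails of most mRNAs, made up 12.9% of mitochondrial counts in NeuDet-D4 and up to 22.7% in hMN-D12 (group means), and tRNA genes together took 0.00567% (hMN-D6) to 0.0186% (hNMP-D3) of all counts (group means). The study prepared mRNA libraries, so the rRNA and tRNA values are what passed that selection and counting. A few libraries stood apart from their group. In NeuDet-D3 replicate 1, 13 of 13 mRNAs had their highest level of the 3 libraries, and in hMN-D30 replicate 1, hMN-D42 replicate 1 and NeuDet-D6 replicate 2, 13 of 13 had their lowest. The library hMN-D12 replicate 2 had the lowest level of 12 of 13 mRNAs and the highest rRNA part of any library, 26.1% of its mitochondrial counts. The values that follow are given with all libraries, and the mRNA and rRNA calls that changed when 1 was left out are named beside them. The tRNA calls were not recomputed in that way.

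Levels between genes can be compared per length. In CPM (counts scaled to a common library size) per kilobase, on library sizes scaled by the trimmed mean of M-values (TMM), the complex IV genes and MT-ATP6 led in hESC, with MT-CO3 at 11043 ± 259 (SD, n = 3), MT-CO1 at 10067 ± 539, MT-CO2 at 9147 ± 259 and MT-ATP6 at 9007 ± 336. The last pair differed by less than their SDs. MT-ND4 (5424 ± 291 CPM per kilobase) headed the complex I genes there, MT-ND5 stood at 2087 ± 226 and MT-ATP8 was lowest at 1666 ± 59.4, a value that the shared bases could lower. In hMN-D6 the order was different. MT-CO2 was first (4664 ± 210 CPM per kilobase), followed by MT-CO1 (4249 ± 138) and MT-ND4 (2852 ± 191), while MT-CO3 stood below them at 2452 ± 65, within the SD of MT-ATP6 above it (2567 ± 148). In hMN-D42 MT-CO3 was at 3012 ± 296 and MT-ND6 above it at 3512 ± 426 CPM per kilobase, neighbours of MT-ATP6 (3320 ± 494) that did not differ from it beyond their SDs.

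Over the 22 groups the genes did not keep step with each other. On the CPM scale, the ratio of the highest to the lowest group mean was 4.75 for MT-CO3 (hESC over hMN-D12), 4.05 for MT-ATP6 (hESC over hMN-D12) and 3.28 for MT-CO1 (hNMP-D3 over hMN-D24). It was 2.16 for MT-ND5 (hNMP-D4 over NeuDet-D6), 2.17 for MT-CO2 and 2.18 for MT-ND6 (hNMP-D4 over hSCNPC-P40). Of the 13 mRNAs, 10 had their lowest group mean in hMN-D6 or hMN-D12, and both rRNAs had it in hMN-D6. The hMN-D12 means include replicate 2, the lowest of its group in 12 of 13 mRNAs. These ratios and the order of hMN-D6 and hMN-D12 were not recomputed without it.

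**Figure D2:**
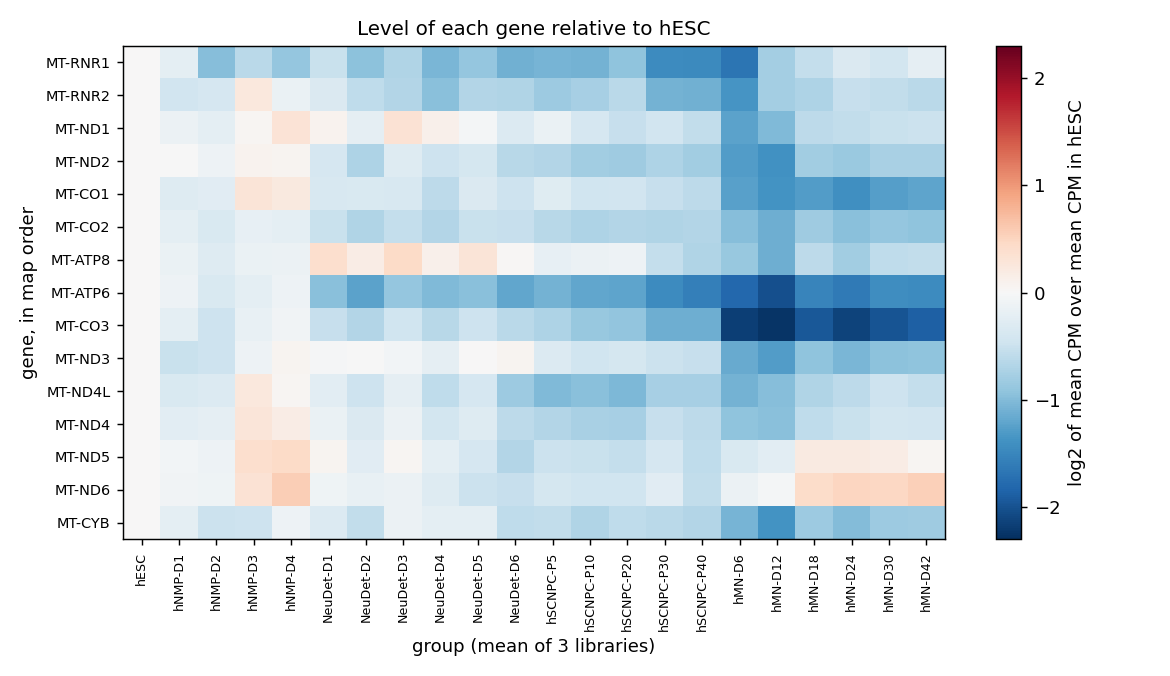
Mean level of the 13 mitochondrial mRNAs and 2 rRNAs (y axis, in map order) in each group of 3 libraries (x axis), as the log2 of mean CPM over the mean in hESC (colour scale, red higher and blue lower than hESC). The darkest blue is MT-CO3 in the hMN groups, where its lowest mean was 1823 CPM against 8658 in hESC, while MT-ND5 and MT-ND6 were pale or red there.

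The first comparison asked how the genes differed between stem cells and day 4 neuromesodermal progenitors. With hESC as reference, 4 of the 13 mRNAs were higher in hNMP-D4 and 1 was lower (edgeR quasi-likelihood F test, Benjamini-Hochberg adjusted p below 0.05 over 21597 genes tested), where 26.4% of all genes were called higher and 27.8% lower. MT-ND6 had 1330, 1209 and 1230 CPM in hESC and 1976, 1869 and 1738 CPM in hNMP-D4, with no overlap. Its log2 fold change was 0.57 (SE 0.0929, adjusted p = 1.39e-06), that of MT-ND5 was 0.44 (SE 0.108, adjusted p = 0.000637) and that of MT-ND1 was 0.31 (SE 0.0831, adjusted p = 0.00119), all 3 of complex I. Among complex IV genes MT-CO1 was higher (log2 fold change 0.23, SE 0.0731) and MT-CO2 lower (log2 fold change -0.23, SE 0.0695). The other 8 mRNAs lay between -0.13 (MT-ATP8) and 0.17 (MT-ND4) and were not called, but MT-ND4 was called without hESC replicate 3 (adjusted p = 0.0418).

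The rRNAs parted at this step. MT-RNR1, the 12S rRNA of the small ribosomal subunit, had 1354, 1265 and 1286 CPM in hESC and 679.4, 669.8 and 761.3 CPM in hNMP-D4, and so fell by 0.89 on the log2 scale (SE 0.166, edgeR adjusted p = 2.74e-05). MT-RNR2, the 16S rRNA of the large subunit, was at 12175 ± 435 CPM and 10984 ± 1027 CPM and was not called (log2 fold change -0.15, SE 0.072, adjusted p = 0.0771), but passed the threshold without hNMP-D4 replicate 3 (adjusted p = 0.0105). The ratio of MT-RNR2 to MT-RNR1 counts was 8.65 to 9.76 in hESC, 15.2 to 16 in hNMP-D4, and 7.85 to 8.29 in hNMP-D1 on the way. In the motor neuron series it was 11.2 to 12.2 on day 6 and 6.79 to 7.46 on day 42.

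From neuromesodermal progenitors to the sixth day of neural induction nearly all mRNAs fell. In NeuDet-D6 against hNMP-D4, 0 of 13 mRNAs were higher by the edgeR test (0 also at an unadjusted p below 0.05 and by DESeq2) and 11 were lower, where 32.8% of all genes tested were called higher and 32.7% lower. The median log2 fold change of the 13 was -0.7, against 0.01 over all genes. The 11 calls also stood when any 1 library of either group was left out.

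MT-ATP6 had 5342, 5667 and 5943 CPM in hNMP-D4 and 2794, 2311 and 2900 CPM in NeuDet-D6 (log2 fold change -1.08, SE 0.0894, edgeR adjusted p = 1.14e-14). MT-ND5 (log2 fold change -1.11, SE 0.109) and MT-ND6 (-1.09, SE 0.0936) fell by about as much. The other complex I genes that fell were MT-ND4L (log2 fold change -0.88), MT-ND4 (-0.76), MT-ND2 (-0.71) and MT-ND1 (-0.62). In complex IV, MT-CO1 fell by 0.7 on the log2 scale, MT-CO3 by 0.54 and MT-CO2 by 0.3, and MT-CYB fell by 0.47. The 2 genes not called were MT-ND3, at 979 ± 61 CPM in hNMP-D4 and 977 ± 103 CPM in NeuDet-D6 (log2 fold change 0, SE 0.0755), and MT-ATP8, at 314 ± 16.3 and 350 ± 31.5 CPM (log2 fold change 0.15, SE 0.123, adjusted p = 0.276). MT-RNR2 fell by 0.55 on the log2 scale (SE 0.0722, adjusted p = 2.67e-09), and MT-RNR1 was not called (log2 fold change -0.22, SE 0.165).

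MT-ATP6 and MT-ATP8, the overlapping pair shown above, therefore differed in course although they are read from 1 mRNA. The count ratio of MT-ATP6 to MT-ATP8 was 16.5, 18 and 19 in hESC, 12.3 to 25.3 over the 12 hNMP libraries, and 6.58 to 8.71 over the 18 NeuDet libraries, with no overlap between the last 2 ranges. It was already 7.13, 6.72 and 7.06 in NeuDet-D1, 1 day after the cells were dissociated and replated in the new medium. There MT-ATP6 had 3253, 3138 and 3068 CPM. MT-ATP8 had 456.1, 467 and 434.5 CPM, against 303.5 to 332.9 CPM in hNMP-D4. The ratio stayed at 7.94 to 12 in the 15 hSCNPC and 8.15 to 10.9 in the 18 hMN libraries. No test was run on the ratio or on the cause of its step.

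Part of the MT-ATP6 signal may lie in a nuclear copy. MTATP6P1 (chr1:633696-634376), an annotated unprocessed pseudogene, differs from MT-ATP6 at 10 of 681 aligned bases (98.53% identity), and how reads matching both places were counted is not given in the sources used here. The first 60 bases of each, plus strand, hg38, show how alike they are, with the only differing base in capitals.
MT-ATP6, chrM:8527-8586: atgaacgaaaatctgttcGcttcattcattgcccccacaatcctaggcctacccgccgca
MTATP6P1, chr1:633696-633755: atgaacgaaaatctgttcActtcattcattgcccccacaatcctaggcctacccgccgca
MTATP6P1 held 277 to 743 CPM per library, which was 10.6% to 12% of MT-ATP6 in the hNMP libraries and 15.5% to 24% in the NeuDet libraries. With the counts of the copy added to MT-ATP6, an alternative chosen after seeing the data, the log2 fold change in NeuDet-D6 was -0.97 in place of -1.08. Another 3 copies reached a mean of 5 CPM, MTND2P28 and MTCO1P12 on chromosome 1 and MTND4P12 on chromosome 5. They were at 2.8% to 5.87% of MT-ND2, 0.137% to 0.463% of MT-CO1 and 0.0733% to 0.314% of MT-ND4. MTCO1P12 also differed between these stages, at 0.137% to 0.191% of MT-CO1 in the hNMP libraries and 0.233% to 0.463% in the NeuDet libraries. All 404 annotated copies together held 0.0391% to 0.0956% of the counts of a library, and 12 of them were tested in this step, 2 being higher and 3 lower.

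The step from NeuDet-D6 to established progenitors changed few mitochondrial mRNAs. In hSCNPC-P5, 1 of 13 was higher and 1 lower, where 28.3% of all genes were called higher and 31.2% lower. MT-ND3 had 1088, 884.7 and 957.5 CPM in NeuDet-D6 and 787.7, 739.5 and 744.3 CPM in hSCNPC-P5 (log2 fold change -0.37, SE 0.0758, edgeR adjusted p = 3.57e-05). MT-CO1 rose by 0.19 on the log2 scale (SE 0.0731, adjusted p = 0.0229) with overlapping libraries, and this call was lost without NeuDet-D6 replicate 2 (adjusted p = 0.307) or 3 (0.0694) and without hSCNPC-P5 replicate 1 (0.0544) or 2 (0.0548). With total counts in place of TMM factors, 0 were higher and 6 lower, the median of all genes moving from -0.04 to -0.14. Leaving out 1 of the NeuDet-D6 libraries added calls of MT-ND1 (without replicate 1, adjusted p = 0.0276), MT-ND4L (without replicate 2, 0.0248) and MT-ND5 (without replicate 3, 0.0384). Neither rRNA was called, although MT-RNR2 was lower without NeuDet-D6 replicate 2 (adjusted p = 0.00756). NeuDet-D6 is the reference here and the later group in the comparison before, so the 2 sets of values share 3 libraries, and hNMP-D4, hSCNPC-P5, hMN-D6 and hMN-D30 each stand in 2 comparisons in the same way.

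Between passage 5 and passage 40 of progenitor culture several mRNAs fell. In hSCNPC-P40 against hSCNPC-P5, 0 of 13 mRNAs were higher (0 also by DESeq2) and 6 were lower, where 22.1% of all genes were called higher and 24.4% lower. At an unadjusted p below 0.05 there were 7, the further gene being MT-ND4L (log2 fold change 0.26, SE 0.118, adjusted p = 0.0666). MT-CO3 had 5269, 5314 and 5305 CPM at passage 5, 4733 ± 93.6 at passage 10, 4629 ± 61.9 at passage 20, 3966 ± 126 at passage 30, and 3944, 4049 and 3957 CPM at passage 40. Its log2 fold change was -0.41 (SE 0.0709, adjusted p = 2.47e-06). MT-ATP8 fell by 0.5 and MT-ATP6 by 0.49 on the log2 scale, both of complex V, and MT-CO1 fell by 0.33.

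A pair of complex I mRNAs fell as well, MT-ND1 (log2 fold change -0.41) and MT-ND3 (-0.21, adjusted p = 0.02), the latter no longer called without hSCNPC-P5 replicate 1 (0.0852) or hSCNPC-P40 replicate 1 (0.0676). MT-RNR2 fell by 0.27 on the log2 scale, and MT-RNR1 just missed the threshold (log2 fold change -0.39, SE 0.166, adjusted p = 0.0525), passing it without hSCNPC-P40 replicate 3 (0.0408). In a fit of these 2 groups alone the mRNA count was 1 higher, MT-ND4L, and 9 lower.

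Of the whole course, the lowest group means lay in hMN-D6 for MT-ND1, MT-ND4L and both rRNAs, and in hMN-D12, with its low replicate 2 included, for most other mRNAs. In hMN-D6 against hSCNPC-P10, 0 of 13 mRNAs were higher (0 also at an unadjusted p below 0.05 and by DESeq2) and 10 were lower, where 40.1% of all genes were called higher and 35.5% lower over 21175 genes tested. The median of all genes lay at 0.12 on the log2 scale here, and moved to 0.25 with relative log expression (RLE) scaling and to 0.3 with total counts, so that the balance of calls rested on the scaling. Under each of those 2 scalings 2 mRNAs were higher and 6 lower, and in a fit of the 2 groups alone 2 were higher and 11 lower. The 2 higher ones were MT-ND5 and MT-ND6 in each case.

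The largest fall was that of MT-CO3, from 4802, 4626 and 4769 CPM in hSCNPC-P10 to 1981, 1900 and 1887 CPM in hMN-D6 (log2 fold change -1.3, SE 0.115, adjusted p = 4.34e-08). MT-CO1 fell from 11248 ± 408 to 6553 ± 213 CPM (log2 fold change -0.78, SE 0.0638), whereas MT-CO2, the third complex IV gene, differed least of these (log2 fold change -0.26, SE 0.105, adjusted p = 0.0356) and lost its call without any of 4 of the 6 libraries (adjusted p = 0.068 to 0.108). MT-ND1 (log2 fold change -0.85), MT-ND3 (-0.7), MT-ND2 (-0.49), MT-ATP8 (-0.74), MT-ATP6 (-0.62) and MT-CYB (-0.38) also fell, the call of MT-CYB being lost without any 1 of hMN-D6 replicates 1 and 3 and hSCNPC-P10 replicates 1 and 3 (adjusted p = 0.0593 to 0.0808). MT-ND4L was called lower by 0.13 on the log2 scale, but was at 0 with RLE scaling and at 0.06 with total counts, and lost its call without any 1 of 3 libraries (adjusted p = 0.0564 to 0.0901).

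MT-ND5 and MT-ND6 had fold changes above 0. MT-ND6 had 954.7, 843.5 and 944.9 CPM in hSCNPC-P10 and 1223, 1202 and 1013 CPM in hMN-D6, with no overlap, but was not called (log2 fold change 0.33, SE 0.169, adjusted p = 0.0948). MT-ND5 was at 2638 ± 151 and 2951 ± 205 CPM (log2 fold change 0.16, SE 0.127, adjusted p = 0.26), and MT-ND4 at 4472 ± 135 and 3930 ± 263 CPM (adjusted p = 0.149). Both rRNAs fell by about the same, MT-RNR1 by 0.6 and MT-RNR2 by 0.59 on the log2 scale.

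**Figure D3:**
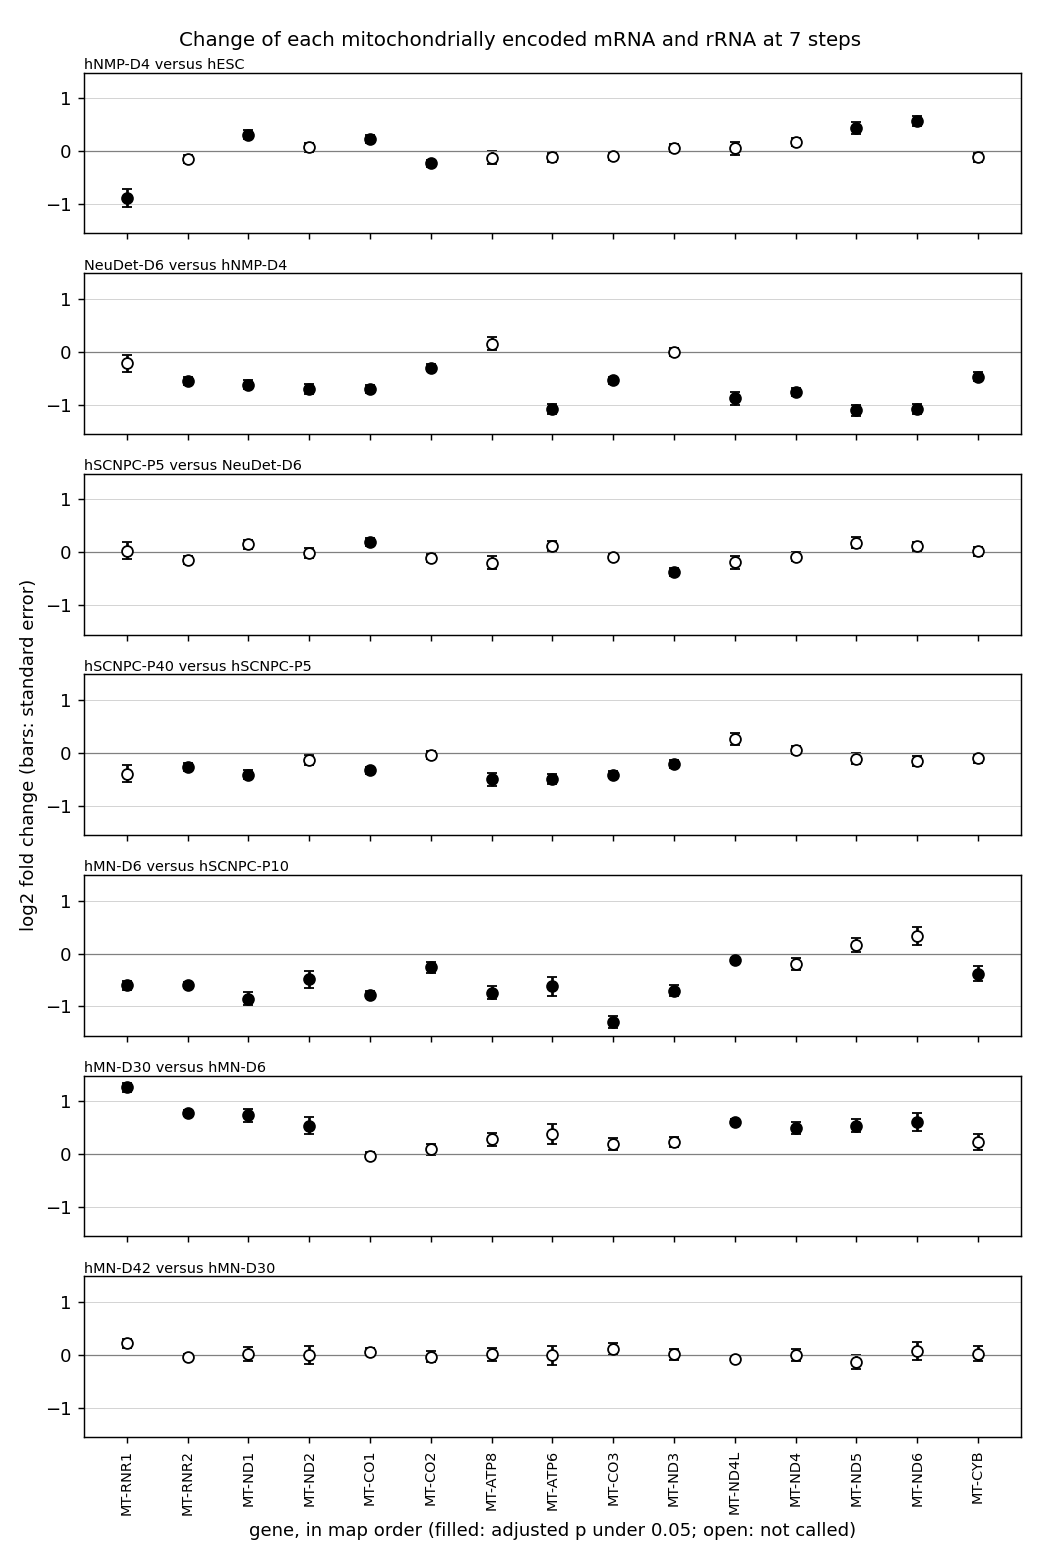
Log2 fold change (y axis, bars are the SE from the edgeR fit) of the 2 rRNAs and 13 mRNAs (x axis, in map order) in each of the 7 comparisons, filled where the adjusted p was below 0.05. In NeuDet-D6 versus hNMP-D4 11 mRNAs lie below 0 and are filled, and in hMN-D6 versus hSCNPC-P10 MT-CO3 is lowest at -1.3 with MT-ND5 and MT-ND6 above 0 and open.

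In the make-up of the mitochondrial mRNA, 3 of the 13 mRNAs separated all motor neuron libraries from all others. MT-CO3 took 5.75% to 7% of the counts in the 13 mRNAs in the 18 hMN libraries and 9.44% to 13.9% in the other 48. MT-ND5 took 9.57% to 13.5% against 5.14% to 7.88%, and MT-ND6 took 3.76% to 5.5% against 1.52% to 2.92%. These 3 genes had ranges that did not overlap, and the ranges of the other mRNAs overlapped. How many of all genes separate these libraries in the same way was not counted. MT-ND4 stood at 13.6% to 15.8% against 10.2% to 13.6%, touching at the edge, and MT-CO1 at 17.2% to 24.3% against 21.5% to 29.5%. The shares sum to a whole, so a lower part of MT-CO3 or MT-CO1 raises the others. No library of another stage was in the second table, so whether stage or table went with this make-up cannot be told apart.

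**Figure D4:**
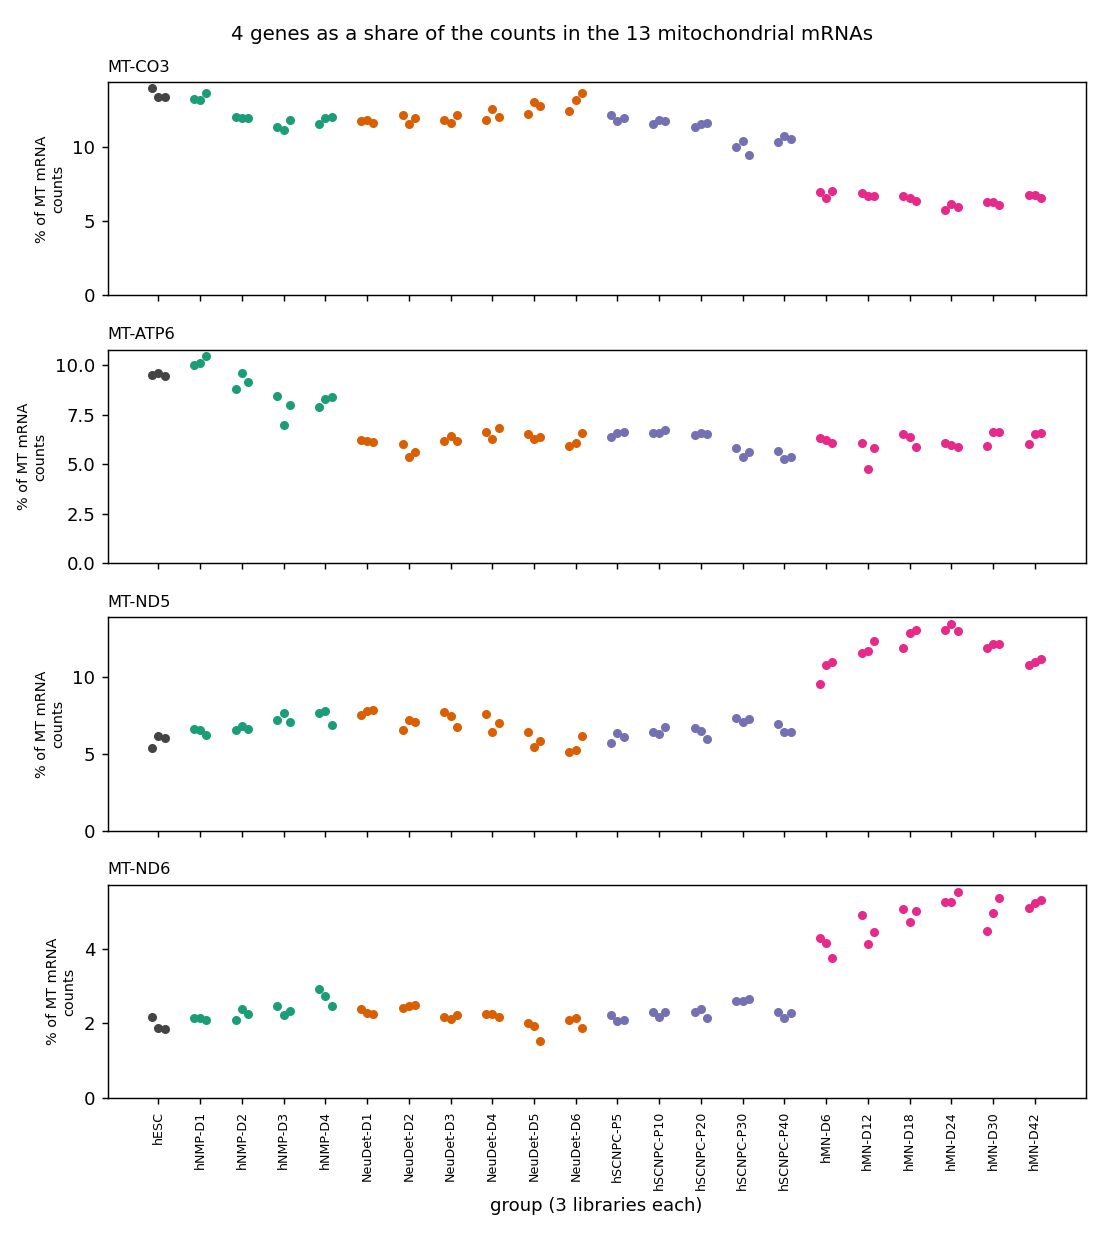
Counts of MT-CO3, MT-ATP6, MT-ND5 and MT-ND6 as a percentage of the counts in the 13 mitochondrial mRNAs (y axes, from 0) in each library of the 22 groups (x axis), 3 points a group, coloured by stage. MT-CO3 stands at 9.44% or more before hMN-D6 and at 7% or less from there on, MT-ND5 at 7.88% or less and 9.57% or more, and MT-ATP6 is lower from NeuDet-D1 on.

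As the cultures aged from day 6 to day 30, 6 of the 7 complex I mRNAs and both rRNAs rose, and the 3 complex IV mRNAs were not called. The difference between the complexes was not tested, and with total counts MT-CO3 was called too (log2 fold change 0.3, adjusted p = 0.0279). In hMN-D30 against hMN-D6, 6 of 13 mRNAs were higher and 0 lower (0 lower also by DESeq2), where 32.3% of all genes were called higher and 31.1% lower. The 6 were MT-ND1 (log2 fold change 0.73, SE 0.128), MT-ND4L (0.61, SE 0.0486), MT-ND6 (0.61, SE 0.169), MT-ND2 (0.54, SE 0.168), MT-ND5 (0.54, SE 0.127) and MT-ND4 (0.5, SE 0.113), which is every complex I gene except MT-ND3 (0.23, adjusted p = 0.064). The call of MT-ND2 was lost without hMN-D30 replicate 3 (adjusted p = 0.0563). At an unadjusted p below 0.05 there were 8 mRNAs, and DESeq2 called 9 and total counts 11.

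MT-ND1 had 2046, 2102 and 1927 CPM on day 6, 2722, 1825 and 2502 CPM on day 12, 3153 ± 113 on day 18, 3229 ± 180 on day 24, and 2864, 3573 and 3656 CPM on day 30. MT-CO1 was not called, at 6748, 6586 and 6325 CPM on day 6 and 5901, 6550 and 6807 CPM on day 30 (log2 fold change -0.03, SE 0.0634, adjusted p = 0.707). MT-CO2 (log2 fold change 0.09) and MT-CO3 (0.19) were not called either. Without hMN-D30 replicate 1, the library lowest in 13 of 13 mRNAs, MT-ATP6 (log2 fold change 0.52), MT-ATP8 (0.38) and MT-ND3 (0.31) passed the threshold too, the last also without hMN-D6 replicate 1 (adjusted p = 0.0135).

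The rRNAs had the clearest rise of the motor neuron series. MT-RNR1 went from 435.6, 389.2 and 391.4 CPM on day 6 to 755.7 ± 31.6 on day 12 and 885.5, 1009 and 1016 CPM on day 30 (log2 fold change 1.26, SE 0.0864, edgeR adjusted p = 1.77e-09). MT-RNR2 went from 5205, 4749 and 4373 CPM to 7994, 8368 and 8161 CPM (log2 fold change 0.78, SE 0.0522, adjusted p = 1.74e-15). The rRNA part of the mitochondrial counts was 15% to 16.5% in the 3 hMN-D6 libraries and 20.7% to 26.1% in those of hMN-D12. RNAs without a poly(A) tail can show how much such RNA a library took up. The summed share of 5 such RNAs (RN7SL1, RN7SL2, RN7SK, RMRP and RPPH1) was 0.0027% to 0.00829% of counts in hMN-D6. It was 0.0102% to 0.0144% in hMN-D30, higher with no overlap. On the days between it overlapped hMN-D6, at 0.00311% to 0.00615% in hMN-D12, 0.00222% to 0.016% in hMN-D18 and 0.00172% to 0.00976% in hMN-D24. The rRNA part was 18.9% to 20.5% in hMN-D18 and 21.2% to 23% in hMN-D24. Only 1 of the 5 RNAs without a poly(A) tail had enough counts to be tested in the motor neuron series, so their summed share is a coarse measure. The summed share of replication-dependent histone mRNAs was 0.021% to 0.0222% in hMN-D6 and lower, 0.0102% to 0.0105%, in hMN-D30. The part of either in the rRNA values was not tested.

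Between day 30 and day 42 no mitochondrial gene was called in either direction. Of the 13 mRNAs 0 passed with edgeR, 0 at an unadjusted p below 0.05 and 0 with DESeq2, where 21.6% of all genes were called higher and 20.1% lower. Log2 fold changes ran from -0.14 (MT-ND5, SE 0.126) to 0.11 (MT-CO3, SE 0.114). Without hMN-D42 replicate 2, MT-ND4L was called lower (log2 fold change -0.14, adjusted p = 0.0175). MT-RNR1 was nearest among the rRNAs, at 970 ± 73.3 and 1127 ± 131 CPM (log2 fold change 0.22, adjusted p = 0.0512), and passed the threshold without hMN-D42 replicate 1 (0.00268) and with DESeq2 (0.0222).

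The 22 tRNA genes gave few counts. The 5 most counted, MT-TP, MT-TN, MT-TC, MT-TL1 and MT-TY, had 57707, 43717, 34508, 6341 and 5195 counts over the 66 libraries, and no other had more than 1191 (MT-TE). The lowest was MT-TW, with 50 counts in 27 of the 66 libraries. Of the 5, 4 are on the minus strand. MT-TN, MT-TC and MT-TY lie in a row, with the known origin of light-strand replication between the first pair, and MT-TP closes the gene map before the control region. Their sequences in hg38, each 5′ to 3′ on its own minus strand, and the stretch between MT-TN and MT-TC on the plus strand, are shown because these 4 were among the 5 most counted tRNA genes.
MT-TP, chrM:15956-16023: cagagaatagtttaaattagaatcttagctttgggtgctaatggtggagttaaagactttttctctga
MT-TN, chrM:5657-5729: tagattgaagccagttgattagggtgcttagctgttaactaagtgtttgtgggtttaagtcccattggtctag
MT-TC, chrM:5761-5826: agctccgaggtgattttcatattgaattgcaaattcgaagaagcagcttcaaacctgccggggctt
MT-TY, chrM:5826-5891: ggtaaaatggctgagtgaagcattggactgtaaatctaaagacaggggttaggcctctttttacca
MT-TN to MT-TC, chrM:5730-5760: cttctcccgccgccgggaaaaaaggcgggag

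After the filter on low counts, 15 tRNA genes were tested up to the hSCNPC stage and 8 in the motor neuron fit, and the filter kept those with counts in some group. A gene kept only through a group where it is high is more apt to be called against that group, so the counts of tRNA calls are only a description. In NeuDet-D6 against hNMP-D4, 11 of 15 were called lower, where 32.7% of all genes were. Among them were MT-TS1 (means of 0.719 and 0.0223 CPM), MT-TD (1.01 and 0.0899 CPM), MT-TV and MT-TL2. These were below 1.1 CPM on average in both groups, MT-TL2 with overlapping libraries. MT-TC, which was well counted, had 54.15, 53.63 and 52.11 CPM in hNMP-D4 and 28.21, 20.28 and 18.62 CPM in NeuDet-D6 (log2 fold change -1.25, adjusted p = 1.48e-06). In hMN-D6 against hSCNPC-P10, 5 of 8 were lower (MT-TL1, MT-TN, MT-TC, MT-TY and MT-TE), where 35.5% of all genes were. MT-TY went from 2.202, 2.463 and 1.813 CPM to 0.3872, 0.4644 and 0.4342 CPM. In hNMP-D4 against hESC 4 of 15 were higher (MT-TN, MT-TS1, MT-TE and MT-TP) and 1 lower (MT-TV), a share of higher genes near the 26.4% over all genes. In hSCNPC-P5 against NeuDet-D6 2 of 15 were lower, where 31.2% of all genes were. They were MT-TP and, with overlapping libraries, MT-TH (means of 0.136 and 0.396 CPM).

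MT-TP rose in 3 comparisons (hNMP-D4, hSCNPC-P40 and hMN-D30) and fell in NeuDet-D6 and hSCNPC-P5. It had 22.17, 20.76 and 21.5 CPM in hSCNPC-P5 and 30.96, 33.05 and 31.32 CPM in hSCNPC-P40 (log2 fold change 0.56, adjusted p = 0.00101), while MT-TL1 fell (-0.97, adjusted p = 0.0126). In the motor neuron series MT-TP had 30.15, 28.75 and 27.06 CPM on day 6 and 39.09, 53.78 and 52.14 CPM on day 30 (log2 fold change 0.75, edgeR adjusted p = 0.00125). It was the only tRNA gene of 8 called there, where 32.3% of all genes were called higher. On day 42 it had 47.89, 74.53 and 63.5 CPM, and none of the 8 was called against day 30.

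Subunits of the same complexes are encoded in the nucleus, and a list of 81 such genes was set beside the members. Nuclear OXPHOS genes took 0.736% of counts in hESC, 0.944% in NeuDet-D6, 0.699% in hMN-D6 and 0.571% in hMN-D24 (group means). NDUFV2, a core subunit of complex I, had means of only 1.26 to 3.01 CPM in hMN-D6, hMN-D30 and hMN-D42, and how its reads were counted was not tested. The ratio of mitochondrial mRNA counts to nuclear OXPHOS counts had its highest group mean in hESC, with libraries at 7.27, 8.63 and 9.11, within the SD of hNMP-D4 (7.89 ± 0.527). Its lowest group mean was in hSCNPC-P40, with libraries at 4.32, 4.33 and 4.17, within the SD of hMN-D6 (4.37 ± 0.264), and the lowest single library was NeuDet-D6 replicate 2 at 3.72. In the hMN libraries it ranged from 3.83 to 7.7.

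**Figure D5:**
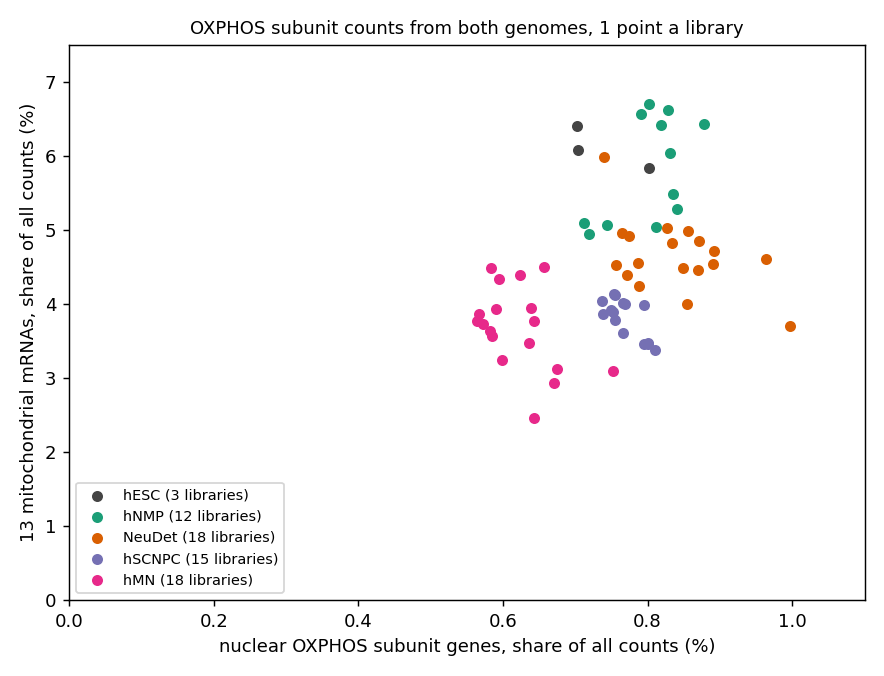
Share of all counts in the 13 mitochondrial mRNAs (%, y axis) against the share in nuclear OXPHOS subunit genes (%, x axis), both axes from 0, 1 point for each of the 66 libraries, coloured by stage. The hMN points lie left, at 0.564% to 0.752% nuclear, the NeuDet points right, at 0.739% to 0.997%, and the hNMP points at 4.94% to 6.7% mitochondrial, around the hESC points at 5.83% to 6.4%.

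The nuclear subunits moved differently from the mitochondrial ones at several steps. In NeuDet-D6 against hNMP-D4, where 11 of 13 mitochondrial mRNAs fell, 40 of 78 nuclear OXPHOS genes tested were higher and 10 lower (median log2 fold change 0.2). Of 76 mitochondrial ribosomal protein genes, 51 were higher and 6 lower. Over all genes, 32.8% were called higher and 32.7% lower. DESeq2 gave 31 nuclear OXPHOS genes higher and 14 lower. ATP5F1E and ATP5MC2, subunits of the ATP synthase as MT-ATP6 is, rose by 1.36 and 1.13 on the log2 scale, and SDHD of complex II fell by 0.97. In hSCNPC-P5 against NeuDet-D6, where 1 mitochondrial mRNA was higher and 1 lower, 5 of 78 nuclear OXPHOS genes were higher and 52 lower (median -0.36). Over all genes, 28.3% were called higher and 31.2% lower in that step.

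In the other steps from stem cell to progenitor, the nuclear OXPHOS genes counted 40 higher and 4 lower in hNMP-D4 against hESC and 22 higher and 3 lower in hSCNPC-P40 against hSCNPC-P5 (34 and 6 in a fit of these 2 groups alone), the higher share of the latter being near the 22.1% over all genes. In hMN-D6 against hSCNPC-P10, 12 of 77 were higher and 45 lower, or 17 and 31 with RLE scaling and 25 and 27 with total counts. In hMN-D30 against hMN-D6, where complex I mRNAs of the mitochondrion rose, 10 of 77 nuclear OXPHOS genes were higher and 54 lower (15 and 42 with total counts). Among these, 20 of 35 nuclear complex I genes were lower and 7 higher, NDUFB11 going from 136 to 83.9 CPM (log2 fold change -0.7). In hMN-D42 against hMN-D30 the count was 24 higher and 4 lower. Over all genes, 26.4% were called higher and 27.8% lower in hNMP-D4, and 22.1% and 24.4% in hSCNPC-P40. In the motor neuron steps these shares were 40.1% and 35.5% in hMN-D6, 32.3% and 31.1% in hMN-D30, and 21.6% and 20.1% in hMN-D42.

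Of the nuclear genes known to act on mitochondrial RNA, LRPPRC, which with SLIRP binds and stabilises mitochondrial mRNAs, was called in each of the 7 comparisons. It had 676, 668 and 862 CPM in hNMP-D4 and 437, 416 and 391 CPM in NeuDet-D6 (log2 fold change -0.83, edgeR adjusted p = 1.91e-17). It had 310, 307 and 295 CPM in hSCNPC-P10 and 135, 138 and 132 CPM in hMN-D6 (log2 fold change -1.17, adjusted p = 8.26e-31), and rose by 0.32 on the log2 scale to day 30. Any link of LRPPRC to the mitochondrial mRNA levels was not tested. LRPPRC also changed at the other steps. It was lower in hSCNPC-P5 (343, 335 and 335 CPM) than in NeuDet-D6, where 1 mRNA was higher and 1 lower. It was higher in hSCNPC-P40 (400, 437 and 420 CPM), where 0 mRNAs were higher and 6 lower. It was also higher in hNMP-D4 than in hESC (506, 544 and 533 CPM), and in hMN-D42 (178, 188 and 181 CPM) than in hMN-D30. SLIRP was not called in hNMP-D4, NeuDet-D6 or hSCNPC-P40, fell by 0.59, 0.58 and 0.69 in hSCNPC-P5, hMN-D6 and hMN-D30, and rose by 0.19 in hMN-D42.

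TFAM, which packages mitochondrial DNA and starts its transcription, fell by 0.34 on the log2 scale in NeuDet-D6, by 0.76 in hSCNPC-P5, by 0.72 in hMN-D6 and by 0.19 in hMN-D30, and rose by 0.2 in hMN-D42. POLRMT, the mitochondrial RNA polymerase, rose by 0.37 in NeuDet-D6 and by 0.2 in hSCNPC-P40, fell by 0.34 in hNMP-D4, by 0.37 in hSCNPC-P5, by 0.56 in hMN-D6 and by 0.11 in hMN-D30, and was not called in hMN-D42. PPARGC1A, a coactivator of mitochondrial biogenesis, went from 2.43, 3.04 and 2.8 CPM in hMN-D6 to 14.8, 16 and 14.5 CPM in hMN-D30 (log2 fold change 2.44, SE 0.122, adjusted p = 6.22e-24) and 22.2, 21.3 and 22.8 CPM in hMN-D42. In hMN-D6 against hSCNPC-P10, 0 of 29 genes of mitochondrial transcription and RNA processing were higher and 23 lower. Of 14 genes of mitochondrial DNA maintenance, 0 were higher and 13 lower. Over all genes, 40.1% were called higher and 35.5% lower. These counts are with TMM factors, and the balance of mRNA calls at this step rested on the scaling, as described above.

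Marker levels were set beside these steps. Summed levels of 6 pluripotency markers were 3493 to 3595 CPM in hESC and 876 to 982 CPM in NeuDet-D6. Only 2 of the 6 reached 1 CPM in NeuDet-D6, and the median log2 fold change of the 6 against hNMP-D4 was -8.86. Summed levels of 6 neural progenitor markers were 5097 to 5354 CPM in hSCNPC-P5. Those of 6 neuronal markers were 1191 to 1255 CPM in hSCNPC-P10 and 7945 to 8292 CPM in hMN-D6. Neuromesodermal markers, defining for the hNMP stage, were at 244 to 482 CPM in hNMP-D4 and higher, 1361 to 1504 CPM, in NeuDet-D6, against the order of the stage names. Of the 6 neural progenitor markers 2 were higher and 2 lower in NeuDet-D6 against hNMP-D4 (median log2 fold change -0.37), and HES5 was at 0 in NeuDet-D6. Mesodermal markers were at 36.9 to 38.5 CPM in NeuDet-D6. All 8 motor neuron markers reached 1 CPM in hMN-D6 (74.4 to 77.3 CPM in sum). The 6 glial markers summed to 14.4 to 16.8 CPM in hMN-D6 and 124 to 134 CPM in hMN-D42. That sum was as high in hESC (125 to 134 CPM) and higher in hSCNPC-P10 (223 to 241 CPM), where 2 of the 6 reached 1 CPM. All 6 did in hMN-D42. In hMN-D42 the neuronal markers were down to 4900 to 5082 CPM. The neural progenitor markers went from 445 to 457 CPM in hMN-D30 to 644 to 669 CPM in hMN-D42. The part of a changing cell make-up in the mitochondrial values was not tested.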

How the data were processed

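The authors deposited raw gene counts, made per the labels with HISAT2 2.1.0 and featureCounts 1.5.3 on hg38, in 2 tables of 48 and 18 libraries. The annotation release, strand setting and treatment of reads with several matches are not given in the sources used here. Identifiers were matched to GENCODE release 44 (99.44% had a symbol). Members and lists were chosen with earlier results of these data known.

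Counts were fitted with edgeR 4.0.16 (R 4.3.3, robust quasi-likelihood F test, filterByExpr, TMM factors of 0.892 to 1.21 over all 66 libraries), the first table in 1 fit and the motor neuron libraries with hSCNPC-P10 in another, and p-values were Benjamini-Hochberg adjusted over all genes tested, with a threshold of 0.05. The code was tested on simulated data. No 2 libraries of a group held identical values (0 of 66 pairs). All 37 genes were reported, and nuclear genes were named by the size of their change among called genes of a list, or as known regulators of mitochondrial RNA and biogenesis. Alternatives were RLE scaling, total counts, mitochondrial genes left out of library sizes, no filter, DESeq2 1.42.0, the compared groups alone, a replicate block and leaving out each library. Figures were drawn with matplotlib 3.10.9. Sequences came from the hg38 reference.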

Additional observations from a re-analysis of the deposited data

How the results depend on the processing

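Of the tests of single mitochondrial mRNAs and rRNAs, 599 kept their side of the threshold when 1 library was left out, 13 gained a call and 18 lost one. None with a call in either fit changed direction, and the direction of genes called in neither was not compared. MT-ND4L in hMN-D6 reversed with RLE scaling (log2 fold change 0) and total counts (0.06). In hSCNPC-P5 against NeuDet-D6, 6 mRNAs were called with total counts and 1 with mitochondrial genes left out of the library sizes, against 2, and 1 to 3 when 1 library was left out. In a fit of the compared groups alone, hSCNPC-P40 against hSCNPC-P5 gave 10 mRNAs against 6 and 40 nuclear OXPHOS genes against 25. In hMN-D30 against hMN-D6 total counts gave 11 mRNAs against 6, and DESeq2 gave 9. In hMN-D42 against hMN-D30, leaving out 1 library gave 0 to 1 mRNAs and 18 to 26 nuclear OXPHOS genes against 28, with 18 without hMN-D30 replicate 1. The lowest group share of counts was 3.16% over protein-coding counts and 3.05% for the 13 coding genes, both in hMN-D6, and the highest was 6.83% and 6.58%, both in hNMP-D4. The cause of these changes was not tested. Replicate numbers did not pair the libraries (correlations of -0.049 to 0.094), and with the replicate block 5, 11, 2, 6, 9, 6 and 0 mRNAs and 44, 50, 56, 25, 57, 64 and 29 nuclear OXPHOS genes were called in the 7 comparisons, the only call lost among mitochondrial mRNAs and rRNAs being MT-CO2 in hMN-D6 (adjusted p = 0.0518). Depth limits mainly the tRNA genes.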

Other observations

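Other lists of nuclear genes were counted in the same fits. Of 22 genes of glycolysis, 3 were higher and 13 lower in hNMP-D4 against hESC, 4 and 14 in NeuDet-D6, 10 and 9 in hSCNPC-P5, 13 and 4 in hSCNPC-P40, 8 and 13 in hMN-D6, 6 and 12 in hMN-D30, and 14 and 2 in hMN-D42, each against its reference group. Over all genes, 26.4% were called higher and 27.8% lower in hNMP-D4, 32.8% and 32.7% in NeuDet-D6, 28.3% and 31.2% in hSCNPC-P5, 22.1% and 24.4% in hSCNPC-P40, 40.1% and 35.5% in hMN-D6, 32.3% and 31.1% in hMN-D30, and 21.6% and 20.1% in hMN-D42, so that some of these counts, such as the 8 higher in hMN-D6, were near the share of all genes. LDHA, whose product makes lactate, had means of 64.8 CPM in NeuDet-D6 and 33.8 CPM in hMN-D42, and how its reads were counted was not tested. Of the genes of the integrated stress response, a program that mitochondrial stress can switch on, 0 of 12 were higher and 11 lower in hMN-D6 against hSCNPC-P10 (edgeR, median log2 fold change -1.72), and 11 were higher and 1 lower in hMN-D30 against hMN-D6 (0.79). Of 12 genes for import, matrix and membrane proteins of the mitochondrion, 0 were higher and 12 lower in hMN-D6, and 8 were higher and 0 lower in hMN-D42. Of 76 mitochondrial ribosomal protein genes, 1 was higher and 69 lower in hMN-D6, and 35 were higher and 1 lower in hMN-D42. The median log2 fold change of all genes in hMN-D6 was 0.12. Of 26 replication-dependent histone genes tested in the motor neuron fit, 1 was higher and 15 lower in hMN-D30, and the 1 gene tested of the 5 RNAs without a poly(A) tail had a log2 fold change of 1.16 and was not called.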
